A study of Homo sapiens with 24 samples.

Results

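Genes whose products act on bone, or on the cells that build and resorb it, were followed in human prostate epithelial cells that overexpressed C-Raf and in lines grown out from their metastases. They are PTHLH, TNFSF11, TNFRSF11B, SPP1, RUNX2, BMP2, BMP4, BMP7, NOG and DKK1, and they were chosen by symbol as 10 of the 60448 symbols in the deposited count tables. The RNA came from BPH-1, a prostate epithelial line immortalized with SV40, and from RWPE-1, a prostate epithelial line immortalized with HPV18. Vector control cells carried the ILYW reporter vector without added C-Raf. C-Raf parental cells carried the same vector with C-Raf, the kinase that links Ras to MEK and ERK, overexpressed. The tag sGluc stands in the titles of all BPH-1 libraries of these kinds, and in no other title. The paper states that each line was made to express Gaussia as well as firefly luciferase. For the metastasis-derived lines, C-Raf parental cells had been injected into the heart of NOD-scid gamma mice, which lack T, B and NK cells, and tumors that grew in bone, spine, lymph node or thymus were resected and returned to culture. BPH-1 gave 3 libraries of vector control, 3 of C-Raf parental cells and 6 of metastasis-derived lines, and RWPE-1 gave 1, 4 and 7. The labels put BPH-1 in DMEM with serum, where the study's methods name RPMI, and RWPE-1 in serum-free keratinocyte medium with pituitary extract and EGF, so medium and cell line cannot be told apart. No label says that the libraries of a group came from separate infections or animals, so that p-values measure the spread between these libraries, which may be technical.

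Values are expected counts scaled by TMM to 1000000 protein-coding counts, written as CPM. They are expected read counts of RSEM that the authors deposited without normalization. Of the 6 BPH-1 metastasis-derived libraries, the 3 titled bone R071, bone R074 and bone R075 held only 111182 to 465032 protein-coding counts, against 20576474 to 42022993 in the other 21 libraries, and the small noncoding RNA RN7SL1 took 93.3 to 97.5% of their counts. RN7SL1 also took 4.6 to 30.3% of the counts in the 3 deeper BPH-1 metastasis-derived libraries, and at most 0.00932% in any other library. The 3 low-depth libraries were therefore described by counts and kept out of levels and tests. The title and the treatment label of both R075 libraries name different sites, the library titled thymus being labelled as bone, so neither was given a site. All BPH-1 metastasis-derived libraries came in a table of their own, so for BPH-1 the stage and the deposited table cannot be told apart. All 10 epithelial markers examined, among them KRT5, were at a mean of at least 1 CPM in every group, whereas the prostate secretory gene KLK3 had no count in any group.

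PTHLH encodes parathyroid hormone-related protein, which acts on osteoblasts to raise TNFSF11 (RANKL), the ligand that drives osteoclast formation, and TNFRSF11B (osteoprotegerin) is the soluble decoy that binds RANKL. BMP2, BMP4 and BMP7 are secreted bone morphogenetic proteins that promote osteoblast differentiation, and NOG (noggin) binds and blocks them. DKK1 blocks WNT signaling, which osteoblasts need, RUNX2 is the transcription factor that commits cells to the osteoblast fate, and SPP1 (osteopontin) is a matrix protein of bone. Prostate cancer is known for bone metastases that form bone as well as resorb it.

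RefSeq windows of 250 bases before the annotated start (build GRCh38.p14) were at hand for 6 of the 10 genes, PTHLH, TNFSF11, SPP1, RUNX2, BMP4 and DKK1. The windows were searched on both strands for CCGGAA, the core bound by ETS factors, and for TGANTCA, the AP-1 element, since both factor families are classical endpoints of ERK signaling. Windows of 3 genes are shown because PTHLH rose and BMP4 fell with C-Raf in BPH-1, while DKK1 and PTHLH had the highest levels per length, and capitals mark the matches. The PTHLH window is chr12:27969977-27970226 on the minus strand. The BMP4 window (the most upstream of its 3) is chr14:53955051-53955300 on the minus strand, and the DKK1 window is chr10:52314031-52314280 on the plus strand. The PTHLH and BMP4 windows lie inside the gene spans given below, which reach further upstream, and that upstream sequence was not searched.
PTHLH: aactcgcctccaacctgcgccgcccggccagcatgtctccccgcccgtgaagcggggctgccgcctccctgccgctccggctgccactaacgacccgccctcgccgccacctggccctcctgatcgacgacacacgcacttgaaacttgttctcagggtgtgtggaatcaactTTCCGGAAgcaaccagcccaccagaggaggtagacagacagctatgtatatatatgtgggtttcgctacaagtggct
BMP4: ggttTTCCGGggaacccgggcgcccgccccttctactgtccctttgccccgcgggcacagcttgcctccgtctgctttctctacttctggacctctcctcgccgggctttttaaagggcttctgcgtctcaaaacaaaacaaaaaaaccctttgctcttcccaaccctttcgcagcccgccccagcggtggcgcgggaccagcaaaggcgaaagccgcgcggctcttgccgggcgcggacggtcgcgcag
DKK1: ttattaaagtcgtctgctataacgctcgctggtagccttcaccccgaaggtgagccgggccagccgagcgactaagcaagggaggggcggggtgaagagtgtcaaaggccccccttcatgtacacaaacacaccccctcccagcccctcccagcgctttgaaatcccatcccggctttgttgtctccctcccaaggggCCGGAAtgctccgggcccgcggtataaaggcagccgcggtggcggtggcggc
In PTHLH, CCGGAA matched on both strands at overlapping bases, 77 and 75 bases before the start. In BMP4 it matched once on the opposite strand, 246 bases before the start, and in DKK1 once, 52 bases before the start. These are 3 of the 10 windows of the members, and the other 2 windows of BMP4 and those of TNFSF11, SPP1 and RUNX2 held no match. At least 1 such match was found in 14.5% of 35116 RefSeq windows of this length. TGANTCA matched in none of these 3 windows and in 6.57% of all windows, and among the members it matched only in the upstream window of RUNX2, at chr6:45328080-45328329. A match is a description of the letters and not a measured binding site.

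Levels per kilobase of exon (CPM per kb) put the members on a common scale. DKK1, with a median of 114 CPM per kb over the 21 libraries, and PTHLH, with 24.1, stood highest, followed by BMP2 (7.2), RUNX2 (1.77), TNFRSF11B (0.445), NOG (0.305), BMP4 (0.182), TNFSF11 (0.0968) and BMP7 (0.0494). SPP1 had a median of 0. The ranges of neighbors in this order overlapped over the 21 libraries, and the order depended on the cell line and stage. In BPH-1 vector control the mean of BMP4, 7.62 CPM per kb, stood above those of BMP2 (1.99) and RUNX2 (1.36), and in BPH-1 C-Raf parental cells that of NOG (1.91) stood above RUNX2 (1.27).

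**Figure D1:**
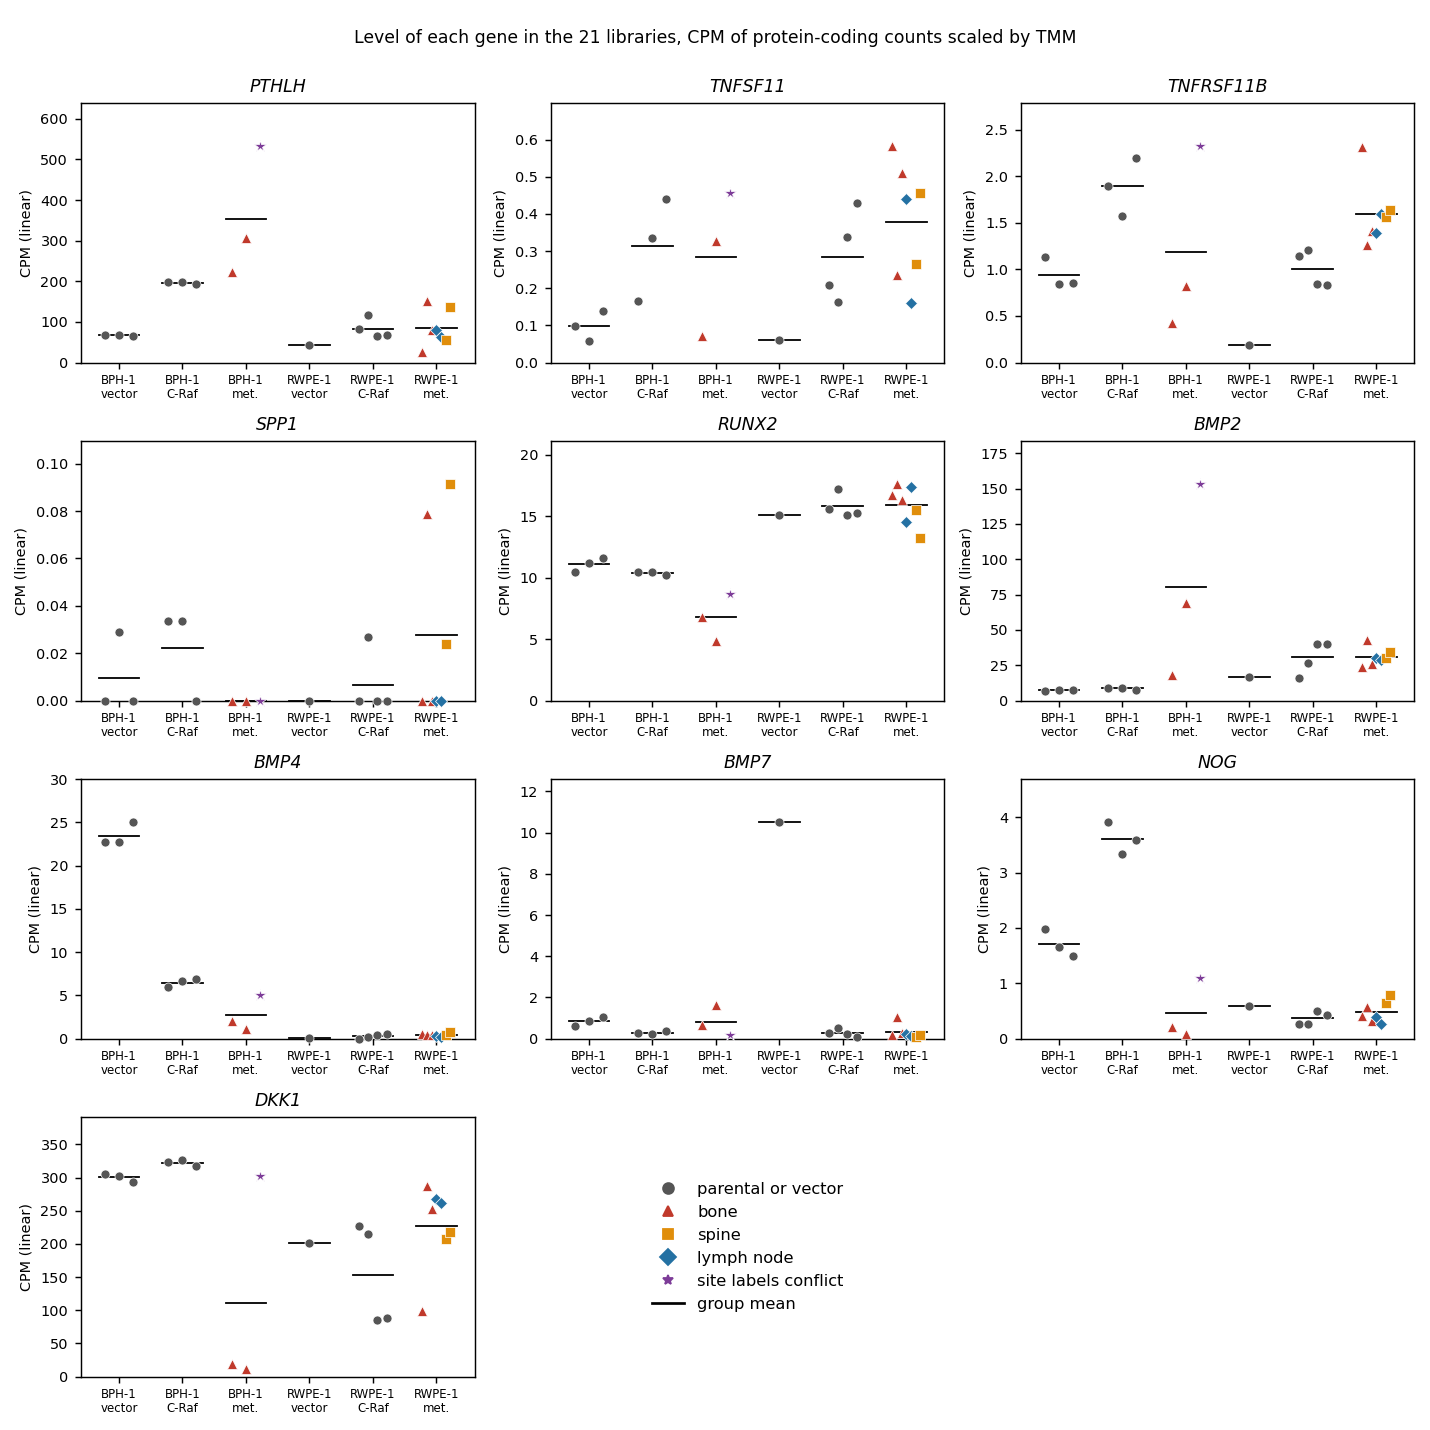
Levels of the 10 genes in the 21 libraries with at least 1000000 protein-coding counts, 1 panel per gene, with CPM on a linear axis and the 6 groups of cell line and stage along the other. Each symbol is 1 library, colored by the labelled site of the metastasis, and each bar is a group mean. PTHLH in BPH-1 climbs from 65.3 to 68.4 CPM in vector control to 194 to 198 in C-Raf parental cells, and BMP7 is at 10.5 CPM in the RWPE-1 vector control and at most 0.511 in RWPE-1 C-Raf parental cells.

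PTHLH (ENSG00000087494, chromosome 12, 27958084 to 27972705) rose on C-Raf overexpression in BPH-1. Its level was 65.3, 68.2 and 68.4 CPM in the 3 vector control libraries and 194, 197 and 198 CPM in the 3 C-Raf parental libraries. The groups did not overlap, and the means of 67.3 ± 1.71 (SD, n = 3) and 196 ± 1.80 CPM (SD, n = 3) differed 2.92-fold, a log2 fold change of 1.55 (SE 0.03) with an adjusted p of 1.16e-25 by edgeR's quasi-likelihood test. The 3 deeper BPH-1 metastasis-derived lines were at 222 CPM (bone R069), 307 CPM (bone R072) and 532 CPM (titled thymus R075), each above every C-Raf parental library. This order depended on the TMM scaling. Without it bone R072 was at 182 CPM, below the C-Raf parental libraries at 207, 210 and 207 CPM. Bone R069 (224 CPM) and the library titled thymus (504 CPM) stayed above them. The 3 low-depth libraries, also without scaling, lay below the C-Raf parental libraries. Bone R071 held 14 counts or 30.1 CPM (95% exact Poisson interval 16.5 to 50.5), bone R074 9 counts or 67.9 CPM (31.1 to 129) and the library titled bone R075 1 count or 8.99 CPM (0.228 to 50.1). With the spread between the 3 deeper lines the log2 difference of 0.91 (SE 0.33) did not pass the test (adjusted p = 0.0719). Over 10 alternatives the log2 difference ran from 0.02, with all libraries kept, to 1.16, with adjusted p from 0.0224 to 0.989. It was called in 2 of them, DESeq2 (0.93) and edgeR without bone R069 (1.16), and was 0.51 and not called without the library titled thymus. By CPM of all counts in the table the mean of these lines was 217 in place of 354. In RWPE-1 the single vector control library was at 42.0 CPM and the 4 C-Raf parental libraries were at 64.3, 68.9, 82.8 and 116 CPM, all of them higher, with a log2 difference of 0.99 (SE 0.73) that was not called (adjusted p = 0.479). The 7 RWPE-1 metastasis-derived lines spread from 26.1 CPM in bone line 4 through a median of 79.0 to 151 CPM in bone line 5, around the C-Raf parental mean of 83.0 ± 23.4 CPM (SD, n = 4). Their log2 difference from C-Raf parental cells was 0.02 (SE 0.38, adjusted p = 0.992).

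TNFSF11 (ENSG00000120659, chromosome 13, 42562736 to 42608013) had between 2 and 26 counts in each of the 21 libraries, or 0.0578 to 0.582 CPM. In BPH-1 it failed the filter on low counts and was not tested. The 3 vector control libraries held 2, 3 and 5 counts and the C-Raf parental libraries 5, 10 and 12, and bone R069, bone R072 and the library titled thymus held 2, 4 and 12. In RWPE-1 the vector control held 2 counts and the C-Raf parental libraries 7, 6, 12 and 15, a difference with an adjusted p of 0.277. TNFRSF11A, which encodes the RANKL receptor RANK, fell in BPH-1 C-Raf parental cells from 3.65 ± 0.267 to 1.81 ± 0.315 CPM (SD, n = 3 each; log2 fold change -1.01, SE 0.15, adjusted p = 1.18e-06) and stayed at or below 1 CPM in all 12 RWPE-1 libraries. PTH1R, the receptor of parathyroid hormone-related protein, had at most 16 counts in a library and none in the 3 deeper BPH-1 metastasis-derived lines.

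TNFRSF11B (ENSG00000164761, chromosome 8) rose with C-Raf in BPH-1. The vector control libraries were at 0.839, 0.857 and 1.13 CPM and the C-Raf parental libraries at 1.57, 1.90 and 2.20 CPM, without overlap. The log2 fold change was 1.02 (SE 0.20, adjusted p = 0.00011). The RWPE-1 vector control was at 0.184 CPM, or 6 counts, and the C-Raf parental libraries were at 0.832, 0.843, 1.14 and 1.21 CPM. That log2 difference of 2.44 (SE 0.51) did not pass the test (adjusted p = 0.0723), although DESeq2 called it at 2.46 (adjusted p = 0.0157), and so did edgeR without C-Raf parental replicate 1 (2.37, adjusted p = 0.0204). All 7 RWPE-1 metastasis-derived lines, at 1.26 to 2.31 CPM, lay above all 4 C-Raf parental libraries, but the log2 difference of 0.66 (SE 0.23) had an unadjusted p of 0.0127 and an adjusted p of 0.43. It was 0.39 in the table with 3 of these lines and 1 C-Raf parental library and 0.73 in the table with the other 4 lines and 3 C-Raf parental libraries. In BPH-1 the metastasis-derived lines parted, with 0.423 CPM in bone R069, 0.821 in bone R072 and 2.32 in the library titled thymus R075 (log2 difference -0.60, SE 0.61, adjusted p = 0.469).

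SPP1 (ENSG00000118785, chromosome 4, 87975650 to 87983426) was scarcely detected. It had 11 counts in all, spread over 7 of the 21 libraries, and at most 3 in any of them, and 3 counts over all 21 libraries would correspond to 0.00431 CPM. It was not tested in any comparison.

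RUNX2 (ENSG00000124813, chromosome 6, 45328157 to 45664349) did not move detectably with C-Raf. It was at 10.5 to 11.6 CPM in BPH-1 vector control and 10.2 to 10.5 in BPH-1 C-Raf parental libraries (log2 difference -0.09, SE 0.07, adjusted p = 0.253). In RWPE-1 it was at 15.1 CPM in vector control, 15.1 to 17.2 in C-Raf parental cells and 13.2 to 17.6 in metastasis-derived lines, with log2 differences of 0.07 (SE 0.17, adjusted p = 0.843) and 0.01 (SE 0.09, adjusted p = 0.99). The BPH-1 metastasis-derived lines were lower than every C-Raf parental library, at 6.77 CPM in bone R069, 4.84 in bone R072 and 8.68 in the library titled thymus, a log2 difference of -0.56 (SE 0.25) that was not called (adjusted p = 0.119). The 2 low-depth libraries titled bone R071 and bone R075 pointed the other way, with 31 and 30 counts, or 66.7 and 270 CPM without scaling.

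The BMP ligands moved in different directions. BMP2 (ENSG00000125845, chromosome 20, 6767664 to 6780280) was at 6.79, 7.11 and 7.58 CPM in BPH-1 vector control and 7.71, 8.92 and 9.22 CPM in C-Raf parental cells, a log2 fold change of 0.27 (SE 0.09, adjusted p = 0.00782) that was no longer called without C-Raf parental replicate 2 (0.22, adjusted p = 0.0535). In the BPH-1 metastasis-derived lines BMP2 reached 18.4 CPM in bone R069, 69.3 in bone R072 and 153 in the library titled thymus, each above the C-Raf parental range. The log2 fold change was 3.28 (SE 0.72, adjusted p = 0.0152), the largest rise among the members in that comparison. Leaving out any 1 of the 3 C-Raf parental libraries kept the size, at 3.18 to 3.31, and raised the adjusted p to between 0.0629 and 0.0667. In RWPE-1 the vector control was at 17.0 CPM, the C-Raf parental libraries at 16, 26.8, 39.7 and 39.9 and the metastasis-derived lines at 23.4 to 43.0 with a median of 30.2, and neither step was called (adjusted p = 0.316 and 0.993). Within the 2 RWPE-1 tables the metastasis-derived lines differed from C-Raf parental cells by 0.89 and -0.18 on the log2 scale.

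BMP4 (ENSG00000125378, chromosome 14, 53949736 to 53958761) fell with C-Raf in BPH-1. The vector control libraries were at 22.7, 22.7 and 25 CPM, whereas the C-Raf parental libraries were at 5.92, 6.65 and 6.83 CPM. The means of 23.5 ± 1.30 and 6.46 ± 0.483 CPM (SD, n = 3 each) stood 3.63-fold apart, a log2 fold change of -1.86 (SE 0.07, adjusted p = 7.94e-19). The metastasis-derived lines were lower again, at 2.08 CPM (bone R069), 1.07 (bone R072) and 5.03 (titled thymus), but the log2 difference of -1.18 (SE 0.52) was not called (adjusted p = 0.119). In RWPE-1 BMP4 was near the limit of detection, with 1 count in vector control, 0, 6, 15 and 19 counts in C-Raf parental cells and 5 to 25 counts in the metastasis-derived lines.

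BMP7 (ENSG00000101144, chromosome 20, 57168748 to 57266629) was lower in C-Raf parental cells than in vector control in both cell lines. The RWPE-1 vector control held 344 counts, or 10.5 CPM, and the 4 C-Raf parental libraries 9, 19, 7 and 2 counts, or 0.270, 0.511, 0.197 and 0.0574 CPM. The mean of the latter, 0.259 ± 0.190 CPM (SD, n = 4), was 40.7-fold lower than the vector control value, a log2 fold change of -5.32 (SE 0.96, adjusted p = 0.039), and the 7 metastasis-derived lines were at 0.0962 to 1.07 CPM. There was 1 vector control library, so that its spread was taken from the other groups, and the call was lost without C-Raf parental replicate 2, 3 or 4 (adjusted p = 0.0636, 0.127 and 0.0977). In the table that holds the vector control, the 1 C-Raf parental library was lower by a log2 difference of -5.01. In BPH-1 the vector control libraries were at 0.597, 0.839 and 1.05 CPM and the C-Raf parental libraries at 0.200, 0.267 and 0.367 CPM, from 6 to 10 counts, a log2 fold change of -1.59 (SE 0.34, adjusted p = 0.000214). Bone R069 and bone R072 were at 0.634 and 1.64 CPM and the library titled thymus at 0.190, and the log2 difference of 1.54 (SE 0.80) from C-Raf parental cells was not called (adjusted p = 0.173).

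NOG (ENSG00000183691, chromosome 17, 56593699 to 56595590) rose with C-Raf and was low in the metastasis-derived lines of BPH-1. The levels were 1.49, 1.65 and 1.99 CPM in vector control and 3.34, 3.60 and 3.91 CPM in C-Raf parental cells, a log2 fold change of 1.09 (SE 0.15, adjusted p = 3.21e-07). Bone R069 was at 0.211 CPM, bone R072 at 0.0821 CPM from 1 count, and the library titled thymus at 1.10 CPM, all below vector control as well. The log2 fold change from C-Raf parental cells was -2.81 (SE 0.75, adjusted p = 0.0287). Without any 1 of the C-Raf parental libraries it was -2.79 to -2.90 with adjusted p from 0.0813 to 0.0905, and without bone R069 it was -2.41 with 0.087. In RWPE-1 all 12 libraries were between 0.265 and 0.791 CPM and no step was called.

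DKK1 (ENSG00000107984, chromosome 10, 52314296 to 52318042) was abundant and split the BPH-1 metastasis-derived lines. It was at 293, 303 and 305 CPM in vector control and 317, 323 and 326 CPM in C-Raf parental cells, a small rise that passed the test (log2 fold change 0.11, SE 0.03, adjusted p = 0.00102). Bone R069 held 19.4 CPM and bone R072 10.7 CPM, whereas the library titled thymus R075 held 302 CPM, inside the vector control range. Over the 3 lines the log2 difference was -1.50 (SE 1.17, adjusted p = 0.341). The 3 low-depth libraries had 0, 0 and 1 DKK1 counts. For bone R071, with 465032 protein-coding counts, a count of 0 allows up to 3 counts, or 6.45 CPM, and for bone R074 22.6 CPM, while the 1 count in the library titled bone R075 corresponds to 8.99 CPM (95% Poisson interval 0.228 to 50.1, counting error only). In RWPE-1 the vector control was at 201 CPM, the C-Raf parental libraries formed a high pair (227 and 215 CPM) and a low pair (84.8 and 88.0 CPM), and the metastasis-derived lines ran from 98.6 to 287 CPM, with no step called (adjusted p = 0.732 and 0.699).

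**Figure D2:**
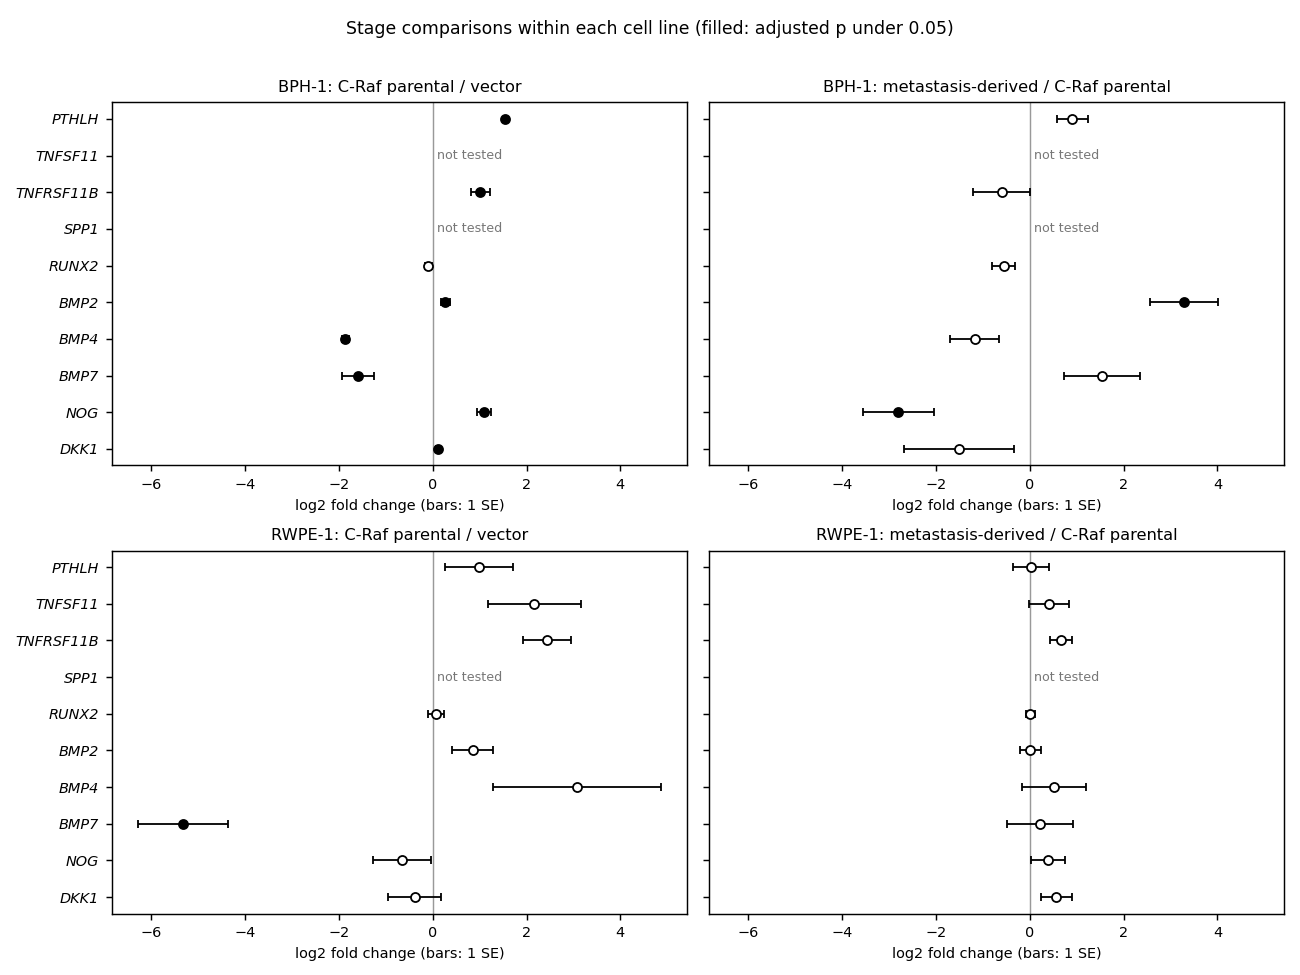
Log2 fold changes of the 10 genes in the 4 stage comparisons within a cell line, from edgeR. Bars are 1 SE, derived from the F statistic, and filled points have an adjusted p under 0.05. Genes are on the vertical axis, and those that failed the filter on low counts are marked as not tested. Filled points are many in BPH-1 C-Raf parental cells, 2 in BPH-1 metastasis-derived lines (BMP2 and NOG) and 1 in RWPE-1 (BMP7).

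In BPH-1 C-Raf parental cells against vector control, 7 of the 8 members tested were called, 5 higher (PTHLH, TNFRSF11B, BMP2, NOG and DKK1) and 2 lower (BMP4 and BMP7). These counts stand against a background of 59.8% of 13241 genes called in that comparison, with 30.4% higher and 29.4% lower. From BPH-1 C-Raf parental cells to their metastasis-derived lines, 2 of 8 were called, 1 in each direction, where 37.7% of 13463 genes were (21% higher and 16.8% lower). In RWPE-1, C-Raf parental cells against vector control gave 1 call among 9 members, a lower level, against 0.396% of 13892 genes (0.281% higher and 0.115% lower). The step to metastasis-derived lines gave none among 9 by edgeR or DESeq2, against 0.115% of genes called by edgeR (0.0792% higher and 0.0360% lower). At an unadjusted p under 0.05 by edgeR it gave 1 among 9, beside 1130 of 13892 genes. The comparison of each step shares the C-Raf parental libraries with the next, so that a value out of place in those libraries would enter both with opposite sign. For bulk RNA, fewer cells making a transcript and less of it per cell cannot be told apart.

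Without the library titled thymus R075, whose site labels conflict, the BPH-1 comparison of bone R069 and bone R072 with C-Raf parental cells called 7 of 9 members, 2 higher and 5 lower, against 50.2% of 13742 genes (27.5% higher and 22.8% lower). DKK1 then fell by 4.34 on the log2 scale (adjusted p = 0.00154), BMP4 by 1.92 (adjusted p = 0.00785), TNFRSF11B by 1.61 (adjusted p = 0.0277) and RUNX2 by 0.76 (adjusted p = 0.0269). BMP7 rose by 2.02 (adjusted p = 0.0357). NOG and BMP2 were called in the same directions, NOG at -4.34 in place of -2.81 and BMP2 at 2.43 in place of 3.28. Sums of marker genes in the same libraries are given here for the reported lists. The sum of 10 epithelial markers was 12855 to 16834 CPM in the 3 deeper metastasis-derived lines and 7267 to 7478 in C-Raf parental cells. The summed level of 10 osteoblast markers was 62.5 to 84.6 CPM in the 3 deeper BPH-1 metastasis-derived lines and 17.0 to 17.6 in C-Raf parental cells, led by COL1A1, with IBSP and DMP1 at 0 in both groups. The sum of 10 osteoclast markers was 21.7 to 25.5 against 6.39 to 7.82 CPM, with DCSTAMP, OCSTAMP and CALCR at 0, and that of 8 endothelial markers 3.81 to 43.5 against 1.76 to 1.80 CPM, led by VWF. Fibroblast markers summed to 3.78 to 7.39 against 0.835 to 1.32 CPM with POSTN at 0, and luminal prostate markers to 29.1 to 58.1 against 18.3 to 21.6 CPM. In BPH-1 vector control the osteoblast sum was 29.2 to 32.9, the osteoclast sum 9.41 to 10.7 and the endothelial sum 1.19 to 1.63 CPM. The fibroblast sum there was 3.24 to 3.93 CPM, which overlaps the range of the metastasis-derived lines, and the luminal sum 19.9 to 23 CPM. Of these lists, 5 of 10 osteoblast, 5 of 10 osteoclast, 2 of 8 endothelial and 2 of 10 fibroblast markers reached a mean of 1 CPM in the metastasis-derived lines. In C-Raf parental cells these numbers were 4, 3, 0 and 0, and in vector control 3, 3, 0 and 2. In RWPE-1 C-Raf parental cells, which had not been in a mouse, the osteoclast sum ran from 10.5 to 1391 CPM, led by MMP9. Whether cells of these kinds were present was not tested. Nor was the part of such cells, of the RN7SL1 share and of the separate table in the differences of the members.

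**Figure D3:**
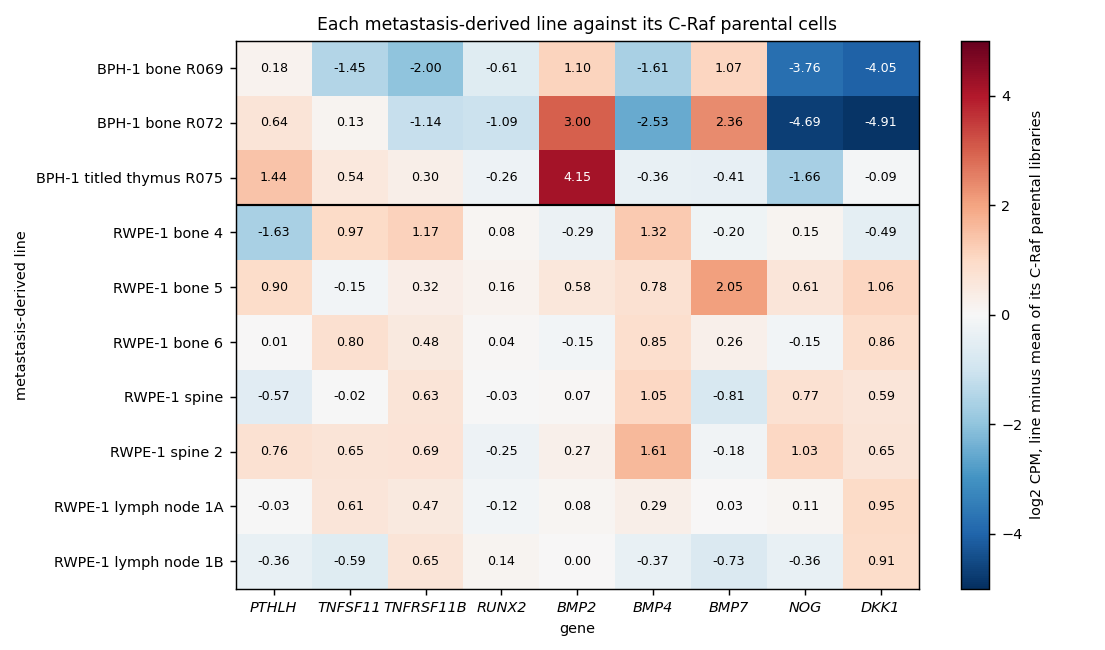
Difference of each metastasis-derived line from the mean of its C-Raf parental libraries in log2 CPM, with 10 lines as rows and 9 genes as columns (SPP1 left out for its low counts) and the value written in each cell. Red is higher and blue lower than C-Raf parental cells. DKK1 and NOG are dark blue in BPH-1 bone R069 and bone R072 (DKK1 -4.05 and -4.91), while all RWPE-1 lines stay between -1.63 and 2.05.

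The site of the metastasis was examined in RWPE-1, where 3 lines came from bone, 2 from spine and 2 from lymph node. None of the 8 members tested differed between bone lines and the other sites, and none of 9 differed between the skeletal sites (bone and spine) and lymph node. These comparisons called 0 of 13167 and 0 of 13377 genes with edgeR (1174 and 394 at an unadjusted p under 0.05), and DESeq2 called 243 and 7. The least p among the members was that of BMP4, at 0.367 to 0.560 CPM in bone, 0.457 and 0.700 in spine and 0.133 and 0.244 in lymph node (log2 difference 1.37, SE 0.49, unadjusted p = 0.0239, adjusted p = 0.971). The skeletal and lymph node lines did not overlap for BMP4, but its values rest on 5 to 25 counts. The 2 lymph node lines are titled LN1A and LN1B, and no label says whether they came from separate tumors or animals. PTHLH, whose product is the classical signal from tumor cells to bone, was at 26.1, 81.3 and 151 CPM in the bone lines, 54.3 and 137 in the spine lines and 62.8 and 79.0 in the lymph node lines. Bone lines thus held both the lowest and the highest PTHLH levels. DKK1 was at 98.6, 252 and 287 CPM in bone, 208 and 218 in spine and 261 and 267 in lymph node. All bone lines were in 1 table and both lymph node lines in the other, so table and site cannot be told apart for these, and a term for the table turned the direction of PTHLH, TNFSF11 and BMP4 in the bone comparison (log2 differences -0.68, -0.04 and -0.67, none called).

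The cell lines differed in the levels of most members. In C-Raf parental cells, 7 of 8 members tested differed between RWPE-1 and BPH-1, 2 being higher and 5 lower in RWPE-1, where 74% of 13528 genes did (38.0% higher and 36.0% lower). BMP4 (0.282 against 6.46 CPM, log2 difference -4.49, SE 0.65, adjusted p = 0.000424) and NOG (0.369 against 3.62 CPM, -3.28, SE 0.26, adjusted p = 1.76e-05) were far lower in RWPE-1. PTHLH, DKK1 and TNFRSF11B were also lower in RWPE-1 (log2 differences -1.24, -1.06 and -0.90), and BMP2 and RUNX2 were higher (1.83 and 0.61). The DKK1 difference was not called without any 1 of the BPH-1 libraries or without RWPE-1 replicate 4, where the adjusted p was 0.0553 to 0.073.

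An interaction term tested whether the step from C-Raf parental cells to metastasis-derived lines differed between the cell lines. It was called for 46.5% of 15237 genes (24.4% higher in BPH-1 and 22.2% lower) and for 3 of 9 members. BMP2 rose more in BPH-1 (difference of log2 effects 3.21, SE 0.59, adjusted p = 0.000267), and NOG and RUNX2 were lower there (-3.24, SE 0.72, adjusted p = 0.00129, and -0.62, SE 0.21, adjusted p = 0.0205). With all libraries kept, the RUNX2 value turned to 2.14 (adjusted p = 0.181). The matching term for C-Raf itself rests on the single RWPE-1 vector control library. Its estimates were large for BMP4 (-4.92, SE 1.68) and BMP7 (3.75, SE 1.28), so that a missing call does not show that the effects were alike. The effect of C-Raf itself did not differ detectably between the cell lines for any of 9 members (0.453% of genes called, 0.164% higher and 0.289% lower), with an adjusted p of 0.213 for BMP4 and for BMP7. The BMP4 term was called without RWPE-1 C-Raf parental replicate 1 (-5.32, adjusted p = 0.0407). Pooled over both cell lines in an edgeR fit with a term for the cell line, BMP7 was the only one of 9 members called for C-Raf (log2 fold change -3.56, SE 0.84, adjusted p = 0.0477, against 0.814% of genes, 0.420% higher and 0.394% lower). That call was lost whichever 1 library was left out. Without the RWPE-1 vector control the value was -1.10 (adjusted p = 0.532), and PTHLH was then called at 1.84 (adjusted p = 0.0435). None of 9 was called between pooled metastasis-derived and C-Raf parental libraries, where 2.51% of genes were (1.77% higher and 0.748% lower).

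The 11 lists, with 148 other genes, of the same pathways, were examined in the same fits. They were chosen with earlier results of these data known, so that their shares beside those of all genes are a description only. In BPH-1 C-Raf parental cells 40 of the 98 genes tested rose and 39 fell, that is 80.6% called beside 59.8% of all genes, with a median log2 fold change of 0.03 beside 0.00 over all genes. In the BPH-1 metastasis-derived lines 25 of 97 rose and 11 fell, that is 37.1% called beside 37.7% of all genes, with a median of 0.40 beside 0.07 over all genes. When any 1 of the C-Raf parental libraries was left out, 8 or 9 of the list genes were called. Beside them stood 1958 of 13885, 2021 of 13877 and 2095 of 13906 genes over all. In RWPE-1 none of 105 was called in either step by edgeR, while DESeq2 called 23 and 6, beside 777 and 174 of all 13892 genes. Without C-Raf parental replicate 1 the first step gave 20 calls by edgeR, beside 1447 of all 13918 genes.

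Among osteoclast-activating cytokines and RANK pathway genes, 8 of 14 rose and 5 fell in BPH-1 C-Raf parental cells. The counts of this and of each following list stand beside 30.4% of all genes higher and 29.4% lower in that comparison, and 21% higher and 16.8% lower in the step to metastasis-derived lines, and nothing particular to a list is read from them. IL1A and IL1B, which encode interleukin-1 cytokines that stimulate osteoclasts, rose by 1.77 (SE 0.03, adjusted p = 7.80e-27) and 1.31 (SE 0.03, adjusted p = 9.82e-25) on the log2 scale. TGFB2 and the death ligand gene TNFSF10 fell by 2.36 and 1.15. In the metastasis-derived lines TNFSF10 was higher again (2.80, SE 0.20, adjusted p = 0.00114) and TGFB1 was lower (-0.88). Of the PTHrP pathway list, 3 of 9 rose and 4 fell with C-Raf, among them the Hedgehog factor GLI2 (-1.46) and the Hedgehog receptor PTCH1 (-1.23), which encode Hedgehog pathway proteins. Of the genes that process or bind osteopontin, 6 of 9 rose and 3 fell, with the integrin gene ITGAV at -0.47. The rises were led by the proteases MMP9 (1.56, from only 0.571 to 1.66 CPM) and PLAU (1.46, from 115 to 316 CPM).

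All 10 tested genes of the bone metastasis list changed in BPH-1 C-Raf parental cells, 5 in each direction, where 59.8% of all genes did. The list was drawn from genes known in other tumors, but with earlier results of these data known, so its share is a description only. The collagenase gene MMP1 went from 3.15 ± 0.107 to 62.2 ± 1.58 CPM (SD, n = 3 each; log2 fold change 4.30, SE 0.06, adjusted p = 5.28e-29), and the Notch ligand gene JAG1 from 83.6 ± 5.91 to 238 ± 5.86 CPM (1.52, SE 0.04, adjusted p = 1.10e-23). CTGF, encoding a matricellular growth factor, fell from 120 ± 2.01 to 22.3 ± 1.17 CPM (-2.42, SE 0.04, adjusted p = 3.01e-27), and CDH2, encoding N-cadherin, fell by 1.89. In the metastasis-derived lines MMP1 (2.44) and JAG1 (2.0) rose again and CTGF fell further (-3.63), and these 3 calls were lost without any 1 of the C-Raf parental libraries.

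Of the BMP target genes, 1 of 10 rose and 5 fell with C-Raf in BPH-1, which at 60% called is the background of 59.8%. The inhibitory SMAD gene SMAD6 fell by 2.48 (SE 0.15, adjusted p = 4.56e-14) and ID1 by 0.68 (SE 0.03, adjusted p = 6.71e-18). HEY1, which Notch also induces, rose by 2.33, from only 0.306 to 1.56 CPM. In the metastasis-derived lines ID2 (2.89, SE 0.39, adjusted p = 0.00364) and SMAD7 (2.22, SE 0.22, adjusted p = 0.00205) rose and ID3 (-1.70) and MSX1 (-1.57) fell. Among other BMP antagonists, 4 of 11 rose and 4 fell with C-Raf, among them BMPER (1.03) and FST (1.00), against GREM1 (-1.09). BMPER then fell in the metastasis-derived lines (-2.61, adjusted p = 0.038), as NOG did. The list of other BMP and GDF genes held 4 tested genes, of which 1 rose and 2 fell with C-Raf. GDF15 rose by 0.30, while GDF11 (-0.45) and BMP8B (-0.36) fell. In the metastasis-derived lines BMP6 rose by 2.51 (SE 0.38, adjusted p = 0.0052) and GDF15 fell by 2.89. Of the receptors and SMADs, 5 of 12 rose and 4 fell with C-Raf, with BMPR1B at 1.71 (from only 0.296 to 0.986 CPM) and BMPR2 at -0.46. BMPR2 (1.60) and SMAD4 (1.1) were higher in the metastasis-derived lines.

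The osteoblast and matrix list held 9 tested genes, of which 2 rose and 4 fell with C-Raf. COL1A1, encoding the main collagen chain of bone, fell from 25.5 ± 1.37 to 11.3 ± 0.118 CPM (SD, n = 3 each; -1.17, SE 0.06, adjusted p = 4.72e-16) and SPARC fell by 1.05, while CDH11 rose by 1.07. In the metastasis-derived lines 4 of 9 rose, with COL1A1 at 58.9 ± 10.5 CPM (SD, n = 3; 2.45, SE 0.20, adjusted p = 0.00151) and PHEX at 2.16, and none fell. Of the RUNX partners, 3 of 7 rose and 2 fell with C-Raf, all by less than 1 on the log2 scale (WWTR1 0.67, TLE3 0.26, HDAC4 -0.27, TLE1 -0.22), and TLE3 alone was called in the metastasis-derived lines (0.75, adjusted p = 0.0491). Of the WNT antagonists and co-receptors, 3 of 7 rose and 2 fell with C-Raf, among them SFRP1 (0.46) and KREMEN2 (-0.38). In the metastasis-derived lines the DKK1 receptor genes moved apart, LRP6 by 0.87 (adjusted p = 0.00764) and KREMEN1 by 1.03, against LRP5 by -1.89 (adjusted p = 0.0375) and KREMEN2 by -1.57. Of the list genes named for the step to metastasis-derived lines, BMP6, COL1A1, ID2, ID3, KREMEN2, SMAD7 and TNFSF10 were called in all 6 fits without 1 library. The other genes named for that step, LRP5, LRP6 and KREMEN1 among them, were called in at most 3 of the 6.

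**Figure D4:**
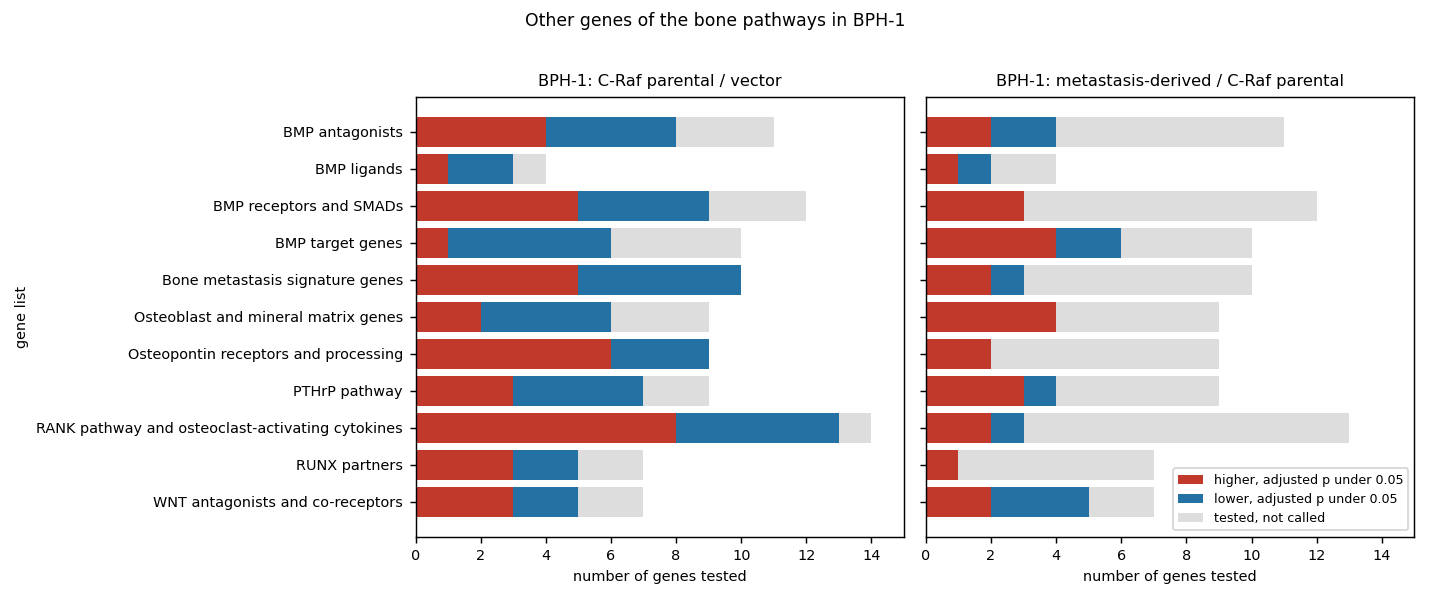
Number of genes tested in each of 11 pathway lists that were higher, lower or not called in BPH-1, for C-Raf parental cells against vector control on the left and their metastasis-derived lines compared with C-Raf parental cells on the right. The lists are rows and the bars count genes. On the left all 10 tested bone metastasis genes and 13 of 14 cytokine and RANK pathway genes are called, while on the right 3 of 10 and 3 of 13 are.

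For the 7 members with a mean of at least 1 CPM, the genes with the most similar profile were ranked by Pearson's r of log2 CPM centered within each cell line, over the 21 libraries and 12626 genes. These values share libraries and stages and are given as a description. The closest genes were S100A13 (r = 0.934) and TMSB10 (0.917) for PTHLH, MECOM (0.913) and FOXC2 (0.867) for TNFRSF11B, RAB32 (0.961) and LMAN2L (0.961) for RUNX2, and DCUN1D3 (0.964) and IER5 (0.959) for BMP2. For BMP4 they were HOXC6 (0.941) and MRAS (0.937), for NOG BMPER (0.938) and NEDD4L (0.935), and for DKK1 SUV39H2 (0.968) and PIM2 (0.958). Within RWPE-1 alone the closeness to PTHLH of TMSB10 was 0.938 and that of DKK1 to SUV39H2 was 0.944, whereas that of NOG to BMPER was -0.054.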

How the data were processed

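RNA of 24 cultures was sequenced as mRNA libraries. The authors deposited RSEM expected counts per gene symbol in 4 tables, without normalization; the submitters' notes name cutadapt, FastQC, STAR, RSEM and hg38. Versions, the annotation and any removal of mouse reads are not given in the sources used here. Expected counts were rounded to whole numbers and restricted to 19235 protein-coding symbols (GENCODE release 29), and 3 libraries with fewer than 1000000 such counts were left out of fits. All columns were mapped to a sample. Levels were scaled by TMM. Comparisons used edgeR 4.0.16 (quasi-likelihood test, R 4.3.3) with Benjamini-Hochberg adjustment over all genes tested and a threshold of 0.05. The SE given with an edgeR fold change is its absolute value divided by the square root of the F statistic. Fits were tested on simulated data. The alternatives left out each library in turn, kept all of them, added the table or the replicate block as a term, dropped the low-count filter, scaled by RLE, or used DESeq2 1.42.0. The members and lists were chosen with earlier results of these data known. Named list genes were the 2 largest rises and falls per list among called genes. Only genes with a mean of at least 1 CPM over the 21 libraries were eligible. For likeness the 3 closest genes per member were ranked. COL1A1, VWF and the other markers stand for their lists. Total counts were 25997814 to 52851374 in the 21 libraries used. A further marker list is not reported here.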

Additional observations from a re-analysis of the deposited data

Results flagged for a closer look

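In RWPE-1 metastasis-derived lines a single line stood apart from the other 6 in 3 genes: BMP7 was at 1.07 CPM in bone line 5, and in bone line 4 DKK1 was at 98.6 CPM and TNFRSF11B at 2.31 CPM. Among 18 groups of values examined, chance sets about 1 in 20 apart in this way.

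The step from C-Raf parental cells to metastasis-derived lines differed between the cell lines for 3 genes by an interaction term in edgeR, with a difference of log2 effects (BPH-1 minus RWPE-1) of 3.21 for BMP2 (adjusted p = 0.000267), -3.24 for NOG (adjusted p = 0.00129) and -0.62 for RUNX2 (adjusted p = 0.0205).

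The low-depth BPH-1 libraries, which entered no test, held 2 genes whose counting interval lay wholly above the highest BPH-1 vector control or C-Raf parental library. RUNX2 was at 66.7 CPM (95% exact Poisson interval 45.3 to 94.6) in bone R071 and 270 CPM (182 to 385) in the library titled bone R075, and TNFRSF11B at 21.5 CPM (10.3 to 39.5) in bone R071. The intervals cover counting error only.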

How the results depend on the processing

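Most values for the 10 genes kept their direction and their side of the adjusted p of 0.05. Apart from fits without 1 library, 367 values did so, 4 lost a call, 4 gained one and 13 turned. In the fits without 1 library the numbers were 823, 26, 13 and 37, and calls of BMP2 and NOG in BPH-1 metastasis-derived lines were among those lost. A value called in neither fit counts as kept, which holds for many of these values. By CPM of all counts, 41 group means of the members stayed within 1 SD of the main value and 9 moved further. With DESeq2 the number of genes called was 777 in place of 55 for RWPE-1 C-Raf parental against vector control, 174 in place of 16 for RWPE-1 metastasis-derived lines, 243 in place of 0 for bone against other sites, 7 in place of 0 for skeletal sites against lymph node, 458 in place of 124 and 940 in place of 383 in the pooled comparisons, and 507 in place of 69 for the interaction for C-Raf. With all libraries kept it was 2097 in place of 5080 for BPH-1 metastasis-derived lines, and 37 each for pooled C-Raf and the interaction for C-Raf. A term for the deposited table gave 31 calls for bone against other sites. The cause of these shifts was not tested. With all libraries kept, TNFRSF11B (0.95) and RUNX2 (3.10) turned in BPH-1 metastasis-derived lines, RUNX2 turned in the pooled comparisons (0.40 and 0.89), and TNFRSF11B (0.07) and RUNX2 (2.14) turned in the interaction for metastasis. With the table term, PTHLH (-0.68), TNFSF11 (-0.04) and BMP4 (-0.67) turned for bone against other sites and PTHLH (-0.39), TNFSF11 (-0.18) and BMP7 (-0.75) for skeletal sites against lymph node. Without a filter on low counts, BMP2 was 0.01 for bone against other sites.

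Leaving out 1 library at a time gave counts of called genes of 7293 to 7645 (in place of 7916) for BPH-1 C-Raf parental against vector control, 1958 to 8318 (in place of 5080) for BPH-1 metastasis-derived against C-Raf parental, 18 to 1447 (in place of 55) for RWPE-1 C-Raf parental against vector control, 4 to 41 (in place of 16) for RWPE-1 metastasis-derived against C-Raf parental, 0 to 0 (in place of 0) for RWPE-1 bone against other sites, 0 to 0 (in place of 0) for RWPE-1 skeletal sites against lymph node, 38 to 287 (in place of 124) for pooled C-Raf parental against vector control, 98 to 479 (in place of 383) for pooled metastasis-derived against C-Raf parental, 8959 to 10652 (in place of 10011) for RWPE-1 against BPH-1 C-Raf parental, 6174 to 8176 (in place of 7089) for the interaction for metastasis, 19 to 510 (in place of 69) for the interaction for C-Raf. Log2 differences whose direction depended on 1 library were, in RWPE-1 metastasis-derived against C-Raf parental, PTHLH -0.18 to 0.23, RUNX2 -0.02 to 0.05, BMP2 -0.20 to 0.17, BMP7 -0.56 to 0.79. In RWPE-1 bone against other sites, PTHLH -0.63 to 0.48, TNFRSF11B -0.21 to 0.26, BMP2 -0.32 to 0.15, BMP4 -0.07 to 0.65, DKK1 -0.44 to 0.18. In RWPE-1 skeletal sites against lymph node, TNFSF11 -0.10 to 1.34, TNFRSF11B -0.02 to 0.23, RUNX2 -0.14 to 0.13, BMP2 -0.05 to 0.18. In pooled metastasis-derived against C-Raf parental, BMP4 -0.36 to 0.17, DKK1 -0.43 to 0.10. In RWPE-1 against BPH-1 C-Raf parental, TNFSF11 -0.44 to 0.17. Same-numbered libraries did not deviate together (correlations -0.04, -0.08 and -0.06 in BPH-1). Mean squared differences within these groups were 1.7 to 4.83 times counting noise, so that low correlations cannot exclude a pairing by number. With the replicate block 7687, 160 and 8625 genes were called for BPH-1 C-Raf, pooled C-Raf and RWPE-1 against BPH-1, and the block ended 1 call among the 10 genes, TNFRSF11B between the cell lines (-0.87, adjusted p = 0.144 by edgeR). Depth limits SPP1, TNFSF11 and, in RWPE-1, BMP4, which rest on few counts.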
